A study of Saccharomyces cerevisiae with 2 samples.

Results

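The genes described here are 10 cell polarity genes of budding yeast (Saccharomyces cerevisiae) that act when a cell builds a mating projection: CDC42, CDC24, BEM1, RHO1, BNI1, SPA2, PEA2, BUD6, ACT1 and MYO2. They were chosen by name. Their members are the nuclear probes that the array's annotation gives to 1 of these genes, or to a divergent pair that holds 1 of them, in the classes upstream and inside the gene. These are 115 of 39441 such probes, 23 upstream and 92 coding, and they belong to 10 of the 5029 genes that had probes on both sides of the start.

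The series holds 2 arrays, replicate 1 and replicate 2, which form 1 group. Both carried DNA of yeast cells held in G1 by alpha factor, the pheromone of the opposite mating type. The DNA labelled nucleosomal, left after micrococcal nuclease had cut chromatin between nucleosomes, carried Cy5, and the DNA labelled genomic, from sonicated chromatin, carried Cy3. The labels used here name no strain or genotype, and there was no untreated group. No label says whether separate cultures were used, so every p below rests on how far the 2 arrays differ, which may be a technical spread.

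When a yeast cell senses pheromone it stops dividing and grows towards the source. The small GTPase Cdc42 marks the growth site, its exchange factor Cdc24 and the scaffold Bem1 activate it there, and the polarisome (Spa2, Pea2, Bud6 and the formin Bni1) nucleates actin cables along which the myosin Myo2 carries vesicles. Rho1, another small GTPase, directs cell wall synthesis and the formin. Nucleosomes usually leave a gap upstream of active yeast genes, and arrays of this kind compare the DNA that survives the nuclease with genomic DNA probe by probe.

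Values are given on a log2 scale as Cy5 over Cy3, and 0 is the median probe of an array. A value above 0 means relatively more of the DNA labelled nucleosomal. The median probe had a raw Cy5 brightness of 32997 on replicate 1 and 33242 on replicate 2, and a raw Cy3 brightness of 17885 and 16928. The arrays were alike over the 114 member probes that passed the spot filters (r = 0.998, a description over neighbouring probes) and differed by 0.34 at most. The 222 mitochondrial probes, whose DNA carries no histones, had a median of 4.50 on this scale. Mitochondrial DNA was thus high in the channel labelled nucleosomal, and other DNA without histones was not examined. Whether the channels are as labelled could not be settled from the files, and every reading of above and below 0 would turn if they were exchanged. What the sign says about nucleosomes was not tested. The number of arrays limits the precision.

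Upstream of these genes the ratio went both ways. Within 500 bp of the start side, 6 of 10 genes (BEM1, RHO1, MYO2, CDC24, ACT1 and PEA2) had a mean above 0 and 4 (BNI1, CDC42, SPA2 and BUD6) a mean below 0, all past the limma test with a Benjamini-Hochberg adjusted p under 0.05. After normexp background correction the mean of CDC42 turned above 0 (0.88), that of BNI1 no longer passed, and that of RHO1 moved to 0.96. Over all 5003 genes tested 73.5% were called above 0 and 23.1% below. The median of the 10 genes was 0.90, against 0.88 over all genes. The counts depended on the window: within 250 bp RHO1 (-0.26) and ACT1 (-0.28) turned below 0, which left 4 genes above and 6 below, with a median of -0.27. By single probes, 12 of the 22 upstream probes were called above 0, 7 below and 3 were not called, against 65.4% above and 30.7% below over 9173 probes. No test compared these counts with those of the array.

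The means ran from 1.69 ± 0.010 (SD, n = 2 arrays) upstream of BEM1 through 1.57 ± 0.017 for RHO1, 1.53 ± 0.014 for MYO2, 1.28 ± 0.022 for CDC24, 1.0 ± 0.085 for ACT1 and 0.80 ± 0.015 for PEA2. Below 0 stood BNI1 at -0.28 ± 0.016, CDC42 at -0.86 ± 0.0095, SPA2 at -1.15 ± 0.0038 and BUD6 at -1.57 ± 0.023. No neighbours in this order overlapped between arrays, although RHO1 and MYO2 were only 0.038 apart. Among all genes BUD6 lay at the 0.640th percentile, SPA2 at the 2.12th and CDC42 at the 5.20th, while the 6 genes above 0 lay between the 47.9th and the 73.4th. This order belongs to the 500 bp window. With the whole upstream region ACT1 (1.96) and PEA2 (1.81) stood above BEM1, MYO2 was at 0.75, CDC42 at -0.42 and SPA2 at -0.58. After loess MYO2 (1.37) and RHO1 (1.35) stood above BEM1 (1.28), with CDC24 at 0.80, ACT1 at 0.63, PEA2 at 0.49 and CDC42 at -1.31.

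**Figure D1:**
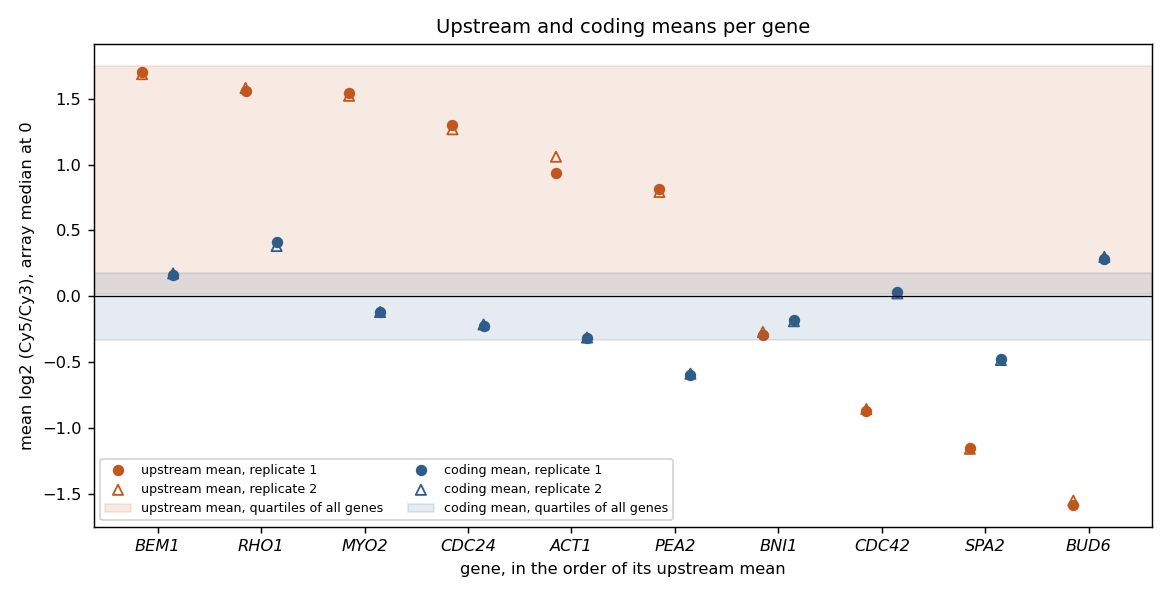
Mean log2 ratio of Cy5 over Cy3 upstream (orange, within 500 bp of the start side) and in the coding region (blue) of each gene on replicate 1 (filled circles) and replicate 2 (open triangles), with bands for the quartiles of all genes. The 4 genes on the right have upstream means from -0.28 to -1.57; after normexp background correction CDC42 turned to 0.88 and BNI1 no longer passed the test, and within 250 bp RHO1 and ACT1 turned below 0.

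Coding regions lay in a narrower range. The mean was above 0 in 4 genes (RHO1, BUD6, BEM1 and CDC42) and below 0 in 6 (MYO2, BNI1, CDC24, ACT1, SPA2 and PEA2), all past the limma test, with 37.7% of 5024 genes called above and 56.1% below. It ran from 0.40 ± 0.023 (SD, n = 2 arrays) for RHO1 to -0.59 ± 0.0080 for PEA2, with a median of -0.15 against -0.084 over all genes. CDC42 was close to the array median at 0.029 ± 0.0097 (limma, adjusted p = 0.0400), and turned below 0 with values not centred (-0.098) and after normexp (-0.30). BEM1 no longer passed after normexp (0.20, limma, adjusted p = 0.0736) or loess (0.032, limma, adjusted p = 0.0696), nor MYO2 after normexp (-0.16, limma, adjusted p = 0.172), where BUD6 moved to 0.83. After loess CDC42 moved to 0.22, RHO1 to 0.13, BUD6 to 0.12, and BNI1 and CDC24 to -0.087 and -0.096.

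The difference between upstream and coding means within each array does not depend on where 0 is set. It was positive in the same 6 genes, from 1.17 ± 0.040 (SD, n = 2 arrays) for RHO1 to 1.65 ± 0.014 for MYO2, and negative in the other 4, with BNI1 at -0.099 ± 0.024, SPA2 at -0.67 ± 0.0010, CDC42 at -0.89 ± 0.019 and BUD6 at -1.86 ± 0.012. Over all 4998 genes 74.8% were called higher upstream and 21.2% lower. In this window the 6 positive genes lay between the 56.3th and the 69.9th percentile of all genes and the other 4 between the 0.760th and the 20.7th. BUD6, CDC42, SPA2 and CDC24 rest on 1 upstream probe each here, that of CDC24 after its dim probe was left out. With the whole upstream region the 6 spread from 0.87 for MYO2 to 2.27 for ACT1 and 2.40 for PEA2, CDC42 moved to -0.44 and SPA2 to -0.10. BEM1 (1.53) and CDC24 (1.5) overlapped between arrays in this order. With dim probes kept CDC24 was the highest at 1.85. After normexp CDC42 turned to 1.18 and BNI1 to 0.23, the latter not passing (limma, adjusted p = 0.233), RHO1 no longer passed (0.49, limma, adjusted p = 0.101), and SPA2 moved to -1.04. After loess CDC42 moved to -1.53, CDC24 to 0.90 and BNI1 to -0.28. When only 250 bp were taken, RHO1 turned to -0.66 and ACT1 no longer passed (0.037, limma, adjusted p = 0.275), since that leaves their nearest upstream probe alone, and MYO2 moved to 0.72.

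**Figure D2:**
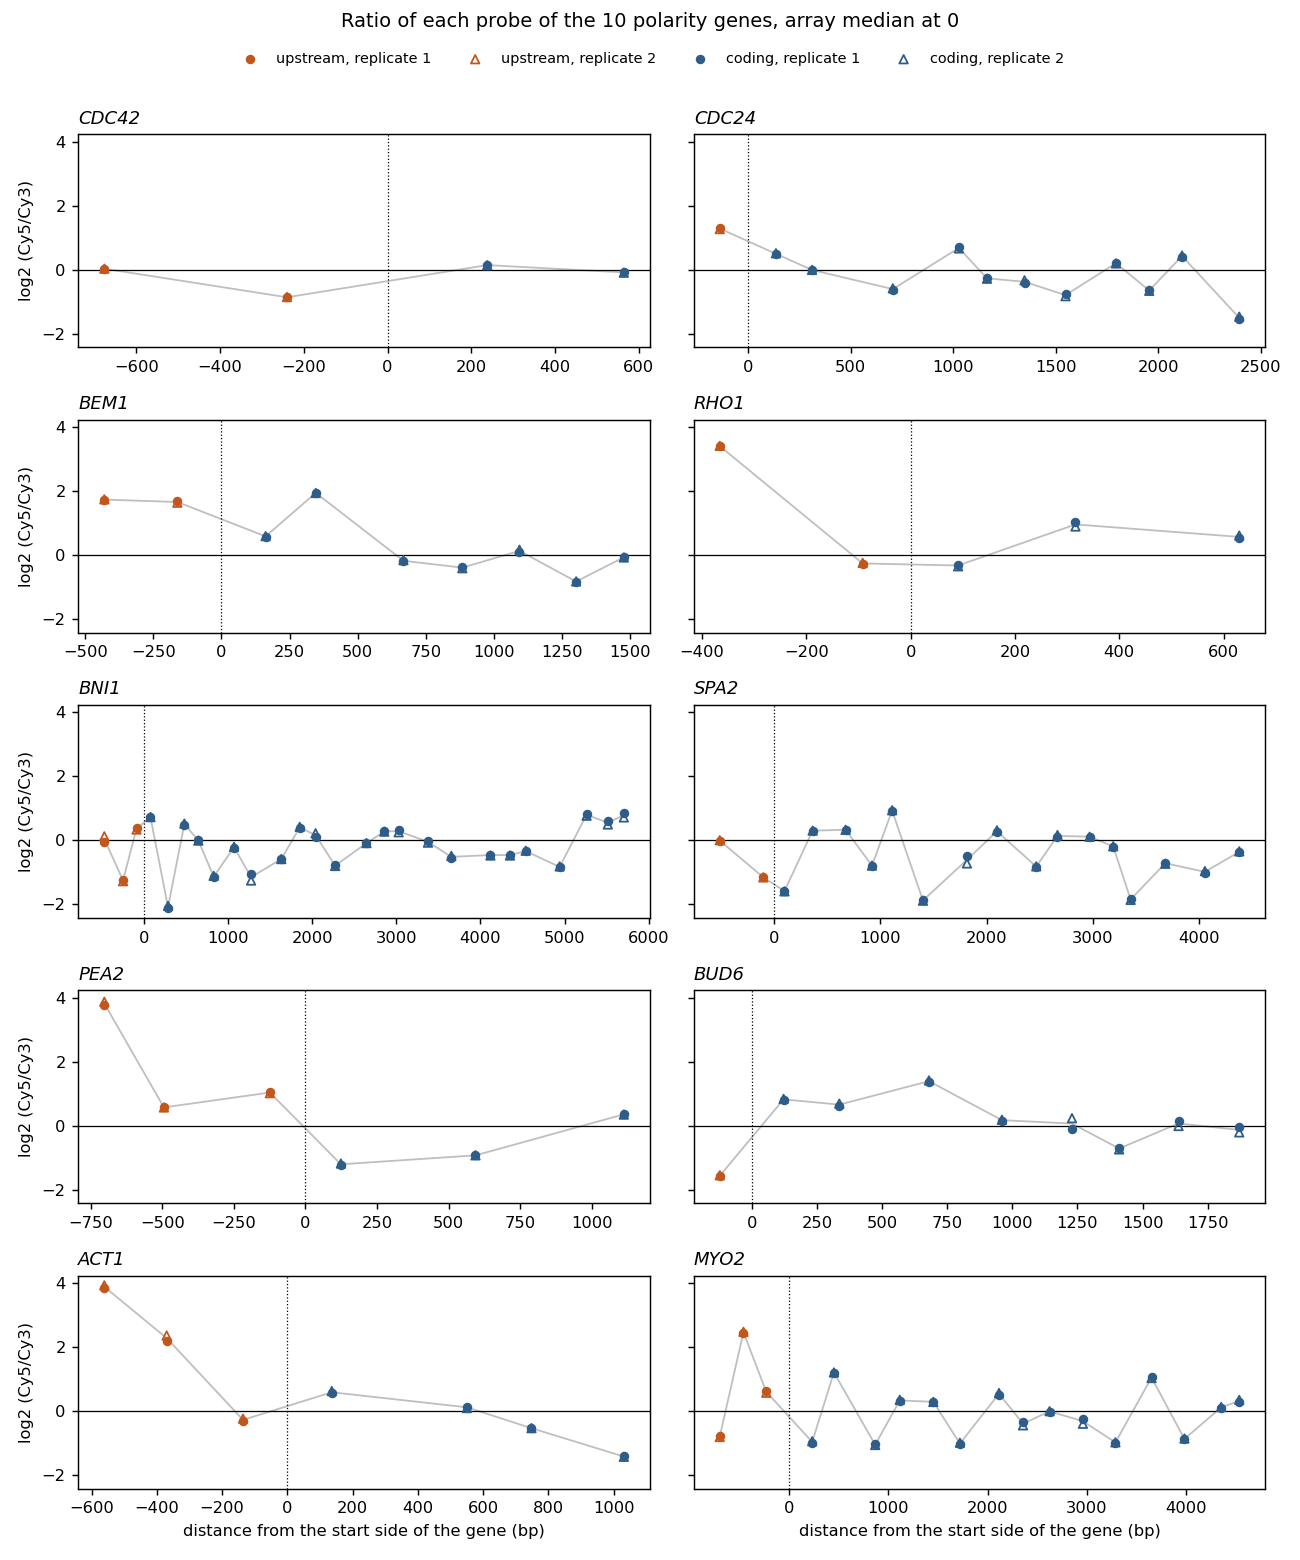
Log2 ratio of Cy5 over Cy3 of every kept upstream (orange) and coding (blue) probe of the 10 genes, by distance from the start side in bp, on replicate 1 (filled circles) and replicate 2 (open triangles); grey lines join the means. ACT1, RHO1 and PEA2 hold upstream probes at means of 3.88, 3.40 and 3.82 that lie 366 bp or more from the start side, while the upstream probes of CDC42, SPA2 and BUD6 have means of 0.031 or less; the CDC42 probe 240 bp away turns to 0.88 after normexp.

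CDC42 encodes the GTPase at the head of the pathway. The start side of a gene was placed midway between its nearest upstream and its first coding probe, so distances are approximate and these flanking probes lie equally far from it. The upstream probe 240 bp away (chromosome 12, 605164 to 605223) read -0.87 on replicate 1 and -0.86 on replicate 2, and the one 676 bp away read 0.032 and 0.031. The near probe was low on both arrays and the far one was not called (limma, adjusted p = 0.152). The coding probes, 238 and 564 bp inside, had means of 0.14 and -0.085. On these values the region was nearly flat apart from a dip next to the gene, 1.0 ± 0.015 (SD, n = 2 arrays) below the first coding probe (limma, adjusted p = 3.16e-07). After loess it was not: the far probe passed at -0.44, with the near one at -1.31 and the first coding probe at 0.41. After normexp the near probe turned to 0.88, the far one passed at 0.99, and the step turned to 1.14. Its raw brightness was low in both channels, 5551 and 5637 in Cy5 and 5580 and 5253 in Cy3, and the part of brightness in this result was not tested.

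CDC24, whose product loads Cdc42 with GTP, was high upstream and lower throughout the gene. The probe 138 bp upstream (chromosome 1, 62719 to 62778) read 1.30 and 1.27 on replicates 1 and 2. A second one, 291 bp upstream, read 1.77 and 2.17, but was left out of means and tests because Cy3 was not well above background on replicate 2. Both arrays placed both probes above every coding probe of the gene. The first coding probe stood at 0.50 and the last of 11, 2395 bp inside, at -1.5 ± 0.050 (SD, n = 2 arrays), the lowest of the gene. After normexp neither passed (0.23, limma, adjusted p = 0.165, and -0.22, limma, adjusted p = 0.173). In all 4 of the 11 were called above 0 and 6 below, with 1 not called, where 40.4% of all coding probes were called above and 52.9% below.

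BEM1, the scaffold that holds Cdc24 to active Cdc42, had the most even upstream region. Its probes 430 and 162 bp upstream (chromosome 2, 620401 to 620460 and 620668 to 620727) had means of 1.73 and 1.66. They differed by 0.042 on replicate 1 and 0.11 on replicate 2. After normexp they stood at 1.61 and 1.46, and the upstream probes of CDC42 (0.99 and 0.88) then lay closer together. The high ratio also reached into the gene: the probe 346 bp inside (chromosome 2, 621177 to 621234) read 1.94 on both arrays, higher than 99.3% of coding probes, after 0.58 at the first coding probe. The remaining 5 coding probes lay between -0.83 and 0.13. The step from the nearest upstream to the first coding probe was 1.07 ± 0.043 (SD, n = 2 arrays; limma, adjusted p = 3.18e-07), and no longer passed after normexp (0.43, limma, adjusted p = 0.0734).

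RHO1, the GTPase that activates cell wall glucan synthesis, had the sharpest contrast between its upstream probes within 500 bp. The probe 366 bp upstream (chromosome 16, 874900 to 874959) read 3.40 and 3.41, above 95.0% of upstream probes. The one 92 bp upstream read -0.28 and -0.25, so 275 bp separated values that differed by 3.66 ± 0.015 (SD, n = 2 arrays). At the start itself there was no step past the test, with 0.064 ± 0.059 between the nearest upstream and the first coding probe (limma, adjusted p = 0.130). The coding probes further in stood at 0.96 and 0.57, and the coding mean lay at the 87.7th percentile, the highest of the 10, though below BUD6 after normexp (0.83 against 0.47) and below CDC42 after loess (0.22 against 0.13). Within 250 bp only the low probe was left and the upstream mean turned to -0.26.

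The polarisome genes differed from one another upstream: PEA2 was above 0, and BNI1, SPA2 and BUD6 below. BNI1, the formin that builds actin cables, had the most coding probes of the set, 23. Its upstream probes read 0.39 and 0.34 at 84 bp, -1.23 and -1.28 at 244 bp (chromosome 14, 135583 to 135642) and -0.044 and 0.13 at 466 bp. The middle probe was low on both arrays, at the 3.09th percentile of upstream probes, and the far probe had opposite signs on the arrays and was not called (limma, adjusted p = 0.423). After normexp the far probe passed at 1.45, the near probe no longer did (-0.033), and neither did the mean of the region (-0.026, limma, adjusted p = 0.90).

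Inside BNI1 the ratio swung just after the start. The first coding probe stood at 0.72, the next, 290 bp inside, at -2.09 ± 0.056 (SD, n = 2 arrays), the lowest value among the 114 probes, and the third at 0.51. Of all coding probes on the array 0.143% lay below it. After normexp, however, it no longer passed (0.070, limma, adjusted p = 0.680). Further in, values ran between -1.15 and 0.80, and the 3 probes nearest the end, 5260 to 5702 bp inside, stood at 0.80, 0.55 and 0.79. After normexp the probes 484 and 5512 bp inside no longer passed (0.32, limma, adjusted p = 0.0541, and 0.23, limma, adjusted p = 0.178). In all, 9 of its coding probes were called above 0, 12 below and 2 were not called, where the array had 40.4% above and 52.9% below.

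SPA2, the scaffold of the polarisome, shares its upstream region with the divergent gene HIF1. The probe 100 bp upstream (chromosome 12, 100771 to 100830) read -1.15 and -1.16, and the one 510 bp upstream, on the HIF1 side, read -0.021 and 0.0044. The first coding probe was lower still at -1.58, so the low ratio spanned the start, and the step there was 0.43 ± 0.0093 (SD, n = 2 arrays; limma, adjusted p = 2.12e-05), which turned to -0.29 after normexp without passing (limma, adjusted p = 0.194). Of 16 coding probes 10 were called below 0 and 6 above, where 52.9% and 40.4% of all coding probes were. Besides the first, those 1402 and 3356 bp inside stood at -1.88 ± 0.0096 and -1.85 ± 0.021, at the 0.319th and 0.376th percentile of coding probes, the second moving to -0.85 after normexp. Together with a coding mean of -0.48 ± 0.0048 (14.1th percentile), SPA2 was low on both sides of its start.

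PEA2, which binds Spa2, shares its upstream region with SPI1, a gene of a cell wall protein. The 3 shared probes read 1.05 and 1.02 at 124 bp from PEA2, 0.57 and 0.57 at 494 bp, and 3.76 and 3.87 at 702 bp (chromosome 5, 468109 to 468164). The last lies 117 bp from the start side of SPI1, so the high end of the region is the SPI1 end, and it falls outside the 500 bp window of PEA2. With the whole region the upstream mean of PEA2 was 1.81 in place of 0.80. The step at the start was 2.24 ± 0.060 (SD, n = 2 arrays; limma, adjusted p = 1.73e-08), the largest positive one among the 10 genes and larger still after normexp (3.43). It was 1.35 after loess. The coding region opened at -1.21 and -0.93 and ended at 0.35, the last no longer passing after normexp (0.27, limma, adjusted p = 0.0994).

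BUD6, which binds actin monomers and helps Bni1, ran opposite to PEA2. Its only upstream probe, shared with MMS22 and lying 123 bp from BUD6 and 128 bp from MMS22 (chromosome 12, 771670 to 771729), read -1.58 and -1.55, at the 1.2th percentile of upstream probes. The build of the coordinates is not stated, so it was not determined whether this probe overlaps coding sequence, and the upstream mean, difference and step of BUD6 all rest on it. The 3 coding probes that follow stood at 0.82, 0.66 and 1.39, the last higher than 97.3% of coding probes. Further in, the lowest probe stood at -0.71 at 1410 bp, and the 4 coding probes nearer the start exceeded the 4 nearer the end by 0.94 ± 0.033 (SD, n = 2 arrays). Over 3252 genes with at least 4 coding probes the quartiles of this difference were -0.31 and 0.42. After normexp the probes 1229 and 1638 bp inside, which were not called at 0.066 and 0.070, passed at 2.92 and 1.28. Both lie nearer the end, so the start and end probes differed less after normexp. The step at the start was -2.39 ± 0.0038 (limma, adjusted p = 8.83e-09) and kept its sign after normexp at -1.23. The upstream mean moved to -0.50 after normexp.

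ACT1, the single actin gene, had the widest range of ratios upstream. Its probes read 3.84 and 3.92 at 561 bp (chromosome 6, 55096 to 55154), 2.19 and 2.36 at 370 bp and -0.32 and -0.24 at 136 bp (chromosome 6, 54670 to 54729). The far and the near probe, 425 bp apart, differed by 4.16 ± 0.0076 (SD, n = 2 arrays). Whether the near probe, which the array lists as promoter, overlaps the start of the coding sequence was not determined, and this range, the 250 bp mean and the step at the start rest on it. The far probe, above 98.0% of upstream probes, lies outside the 500 bp window, so the upstream mean was 1.0 within 500 bp, 1.96 with the whole region and -0.28 within 250 bp. After normexp the near probe no longer passed (0.16, limma, adjusted p = 0.345), and the range of ACT1 was no longer the widest. MYO2 (2.07 to -1.42) and RHO1 (2.48 to -0.56) then ranged wider than ACT1 (2.82 to 0.16).

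The coding probes of ACT1 declined in steps from 0.59 at 136 bp inside through 0.12 and -0.54 to -1.42 ± 0.012 (SD, n = 2 arrays) at 1031 bp. Those nearer the start exceeded those nearer the end by 1.33 ± 0.014, against quartiles of -0.31 and 0.42 over 3252 genes with at least 4 coding probes. After normexp the probe at 550 bp no longer passed (0.15, limma, adjusted p = 0.358), and after loess it turned to -0.093. ACT1 carries an intron close to its start codon, and the array's annotation does not separate intron from exon. The step at the start was -0.86 ± 0.0017 (limma, adjusted p = 6.26e-07).

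MYO2, the myosin that carries vesicles along actin cables, shares its upstream region with FRT1. The probe in the middle, 462 bp from MYO2 and 374 bp from FRT1 (chromosome 15, 925311 to 925370), read 2.45 and 2.47. It was flanked by 0.63 and 0.57 at 232 bp and by -0.79 and -0.81 at 701 bp, the FRT1 end. The middle probe thus stood 3.26 ± 0.028 (SD, n = 2 arrays) above the lowest, and the upstream mean was 0.75 with the whole region and 0.60 within 250 bp, in place of 1.53. In its coding region 7 of 15 probes were called above 0 and 7 below, where the array had 40.4% and 52.9%. Values along the gene ran from -1.05 to 1.2, with 9 changes of sign over 14 neighbouring pairs. SPA2 had 8 over 15 pairs and CDC24 7 over 10, and such changes were not counted over all genes.

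The upstream probes were also grouped by their distance from the start side. That distance is approximate, because the start side was set midway between flanking probes. The group within 250 bp includes the nearest upstream probe of each of the 10 genes. Of the 11 probes within 250 bp of the start side 5 were called above 0 and 6 below (limma), against 67.4% and 29.3% of 4873 pairs of probe and gene at this distance over the genome. Their median was -0.26 against 0.71. After normexp the probes of CDC42 (0.88) and ACT1 (0.16, not passing) turned above 0 and that of BNI1 at 84 bp turned below (-0.033, not passing). The ACT1 probe was then the middle one of the 11, so their median also turned above 0, to 0.16. The median over all genes at this distance after normexp is not given here. Of the 6 probes from 250 to 500 bp 5 were called above 0 and none below (limma, 0 at an unadjusted p under 0.05), against 67.6% and 29.1% of 2901, and their median was 2.0 against 0.70. The remaining one, of BNI1, was not called. Beyond 500 bp the 5 probes had a median of 0.031, with those of PEA2 and ACT1 at 3.82 and 3.88, MYO2 called below 0, and CDC42 and SPA2 not called. There 64.8% of 2746 pairs were called above 0 and 30.7% below. Within single genes the farthest probe was not always the higher one: farthest minus nearest was -1.40 in MYO2, -0.33 in BNI1 and 0.074 in BEM1. These are small numbers of probes in regions of 10 genes, 4 of them shared with a divergent neighbour, and the difference between distances was not tested.

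Across the start itself, from the nearest upstream to the first coding probe, the ratio was called higher upstream in 5 genes (PEA2, MYO2, BEM1, CDC24 and SPA2), lower in 4 (BUD6, CDC42, ACT1 and BNI1) and not called in RHO1. Over 5008 genes 66.9% were called higher upstream and 28.3% lower (limma), and the median step was 0.25 in the 10 genes against 0.77. The step of MYO2 was 1.57 ± 0.073 (SD, n = 2 arrays), that of CDC24 0.79 ± 0.044 and that of BNI1 -0.36 ± 0.044. After loess BNI1 turned to 0.033, CDC24 moved to 0.30, CDC42 to -1.72 and SPA2 to 0.73, and after normexp CDC24 moved to 1.21 and BNI1 to -0.79. After normexp, too, CDC42 turned to 1.14, SPA2 to -0.29 without passing, and BEM1 no longer passed (0.43). ACT1 was above 0 upstream by its mean within 500 bp and yet lower upstream across the start.

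**Figure D3:**
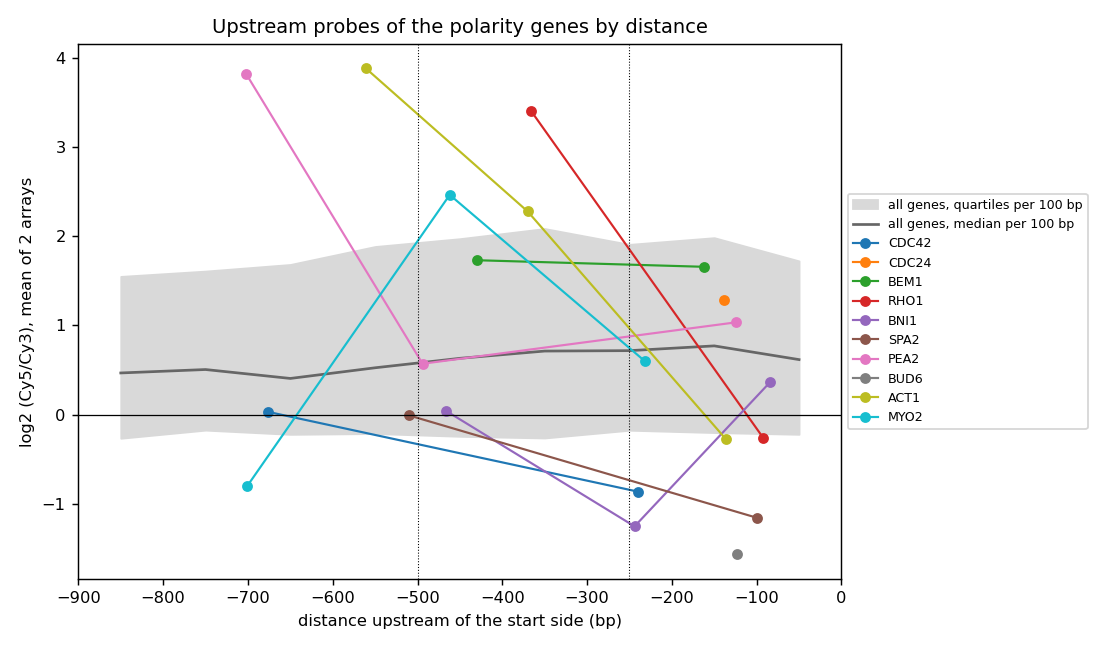
Log2 ratio of Cy5 over Cy3 (mean of 2 arrays) of each kept upstream probe by its distance from the start side in bp; lines join probes of 1 gene, and the grey band and line give quartiles and median of all genes per 100 bp. Within 250 bp the probes lie between -1.57 and 1.66, and from 250 to 500 bp between 0.041 and 3.40; after normexp the CDC42 probe at 240 bp and the ACT1 probe at 136 bp turn above 0 and the BNI1 probe at 84 bp below.

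Within the coding regions the spread between probes was much larger than that between arrays. Among the genes of the set with at least 4 coding probes the SD between probes ran from 0.65 in BUD6 to 0.89 in BEM1. Over all 3252 genes with at least 4 its median was 0.62 (quartiles 0.48 and 0.77). Neighbouring coding probes differed by a median of 1.15 in MYO2 and 1.10 in SPA2, above the upper quartile of 0.84 over those genes, as were CDC24 (0.90) and BEM1 (0.86), and by 0.50 in BNI1, below the median of 0.61. Over all 92 coding probes of the set 39 were called above 0, 47 below and 6 were not called, beside the 40.4% and 52.9% of the array. Coding means of long genes such as BNI1, SPA2 and MYO2 therefore average over strongly unlike probes.

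The highest ratios were found at probes with low Cy3 brightness, and the lowest at probes with low Cy5 brightness. The 6 highest member probes, those upstream of ACT1 (2 probes), PEA2, RHO1 and MYO2 and the coding one of BEM1, had a median Cy3 brightness of 2365 on replicate 1 and 2048 on replicate 2, against 18020 and 16874 over the 114 member probes. Their median Cy5 brightness was 38649 and 40170, against 32672 and 33213. The 6 lowest had a median Cy5 brightness of 9791 and 9949, with Cy3 at 18822 and 17429. Over the 114 probes the ratio had an r of -0.68 with log2 Cy3 brightness and of 0.11 with log2 Cy5 brightness, and over 39229 nuclear upstream and coding probes of -0.72 and 0.19. These are descriptions across probes, the ratio itself contains both channels, and base composition was not measured here. The part of Cy3 brightness in the upstream values was not tested.

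**Figure D4:**
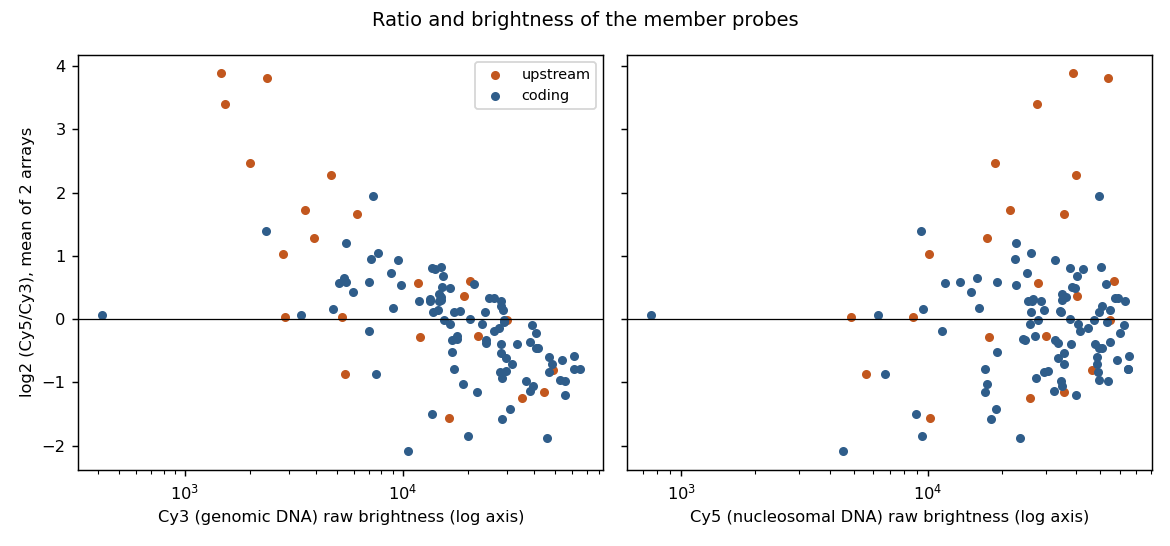
Log2 ratio of Cy5 over Cy3 (mean of 2 arrays) of the 114 member probes against raw brightness on a log axis, Cy3 on the left and Cy5 on the right, with upstream probes in orange and coding probes in blue. Ratios fall as Cy3 brightness rises (r = -0.68), while Cy5 brightness shows little relation to the ratio (r = 0.11).

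The wider pathway was described by 7 lists of related genes, 110 of whose 114 genes were measured. BUD5, TPM2, SAC6 and ARC19 had no pair of upstream and coding values. Of the 110, 82 were higher upstream than coding and 24 lower (limma), against 74.8% and 21.2% over all genes, and the median difference was 1.06 against 0.96. After normexp 13 were lower. Regulators and effectors of Cdc42 had 12 of 17 higher and 5 lower, with GIC2, a Cdc42 effector, at 3.56 ± 0.0045 (SD, n = 2 arrays) and BEM4 at -2.65 ± 0.043. BEM4 was -0.54 with the whole upstream region and -1.66 after normexp. Genes of bud site and axis choice had 8 of 10 higher and none lower (limma, 0 at an unadjusted p under 0.05). Those called ran from BUD9 at 0.35 ± 0.060, which did not pass after normexp (0.23), to RAX2 at 3.53 ± 0.12. BUD3 (-0.024) and BUD4 (0.013) were not called. The upstream value of RAX2 rested on 1 probe.

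Among the factors that assemble and turn over actin, filament and cable genes had 12 of 15 higher and 3 lower, with COF1, the cofilin gene, at 3.95 ± 0.045 (SD, n = 2 arrays) and TWF1, the twinfilin gene, at -1.11 ± 0.035. Genes of actin patches and of the Arp2/3 complex had 16 of 22 higher and 6 lower, from END3, an endocytosis factor, at -0.97 ± 0.020 (-0.56 after loess) to ARC40, a subunit of the complex, at 3.83 ± 0.042. The upstream values of COF1, TWF1, END3 and ARC40 each rested on 1 probe. For COF1 and ARC40 the difference could not be computed once saturated probes were left out. Without divergent probes it could not be computed for COF1, END3 and ARC40. The 10 polarity genes reached 1.65 in the same window, or 1.85 in CDC24 with dim probes kept.

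Exocyst and vesicle delivery genes, which act where Myo2 brings its cargo, had 13 of 19 higher and 5 lower, with the exocyst subunits SEC8 at 3.71 ± 0.053 (SD, n = 2 arrays) and SEC15 at -0.87 ± 0.031, the latter turning to 0.56 after normexp without passing. Rho1 regulators and cell wall targets had 13 of 17 higher and 3 lower, with both extremes in kinases of the cell wall pathway, SLT2 at 3.31 ± 0.10 and BCK1 at -2.16 ± 0.094. Septin genes and their kinases had 8 of 10 higher and 2 lower, from ELM1, a septin kinase, at -1.02 ± 0.012 (-1.59 within 250 bp) to the septin CDC10 at 3.13 ± 0.0015. The upstream values of SEC8, SLT2, BCK1 and CDC10 each rested on 1 probe. All lists but that of bud site genes held members called on both sides of 0, as the 10 polarity genes did.

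**Figure D5:**
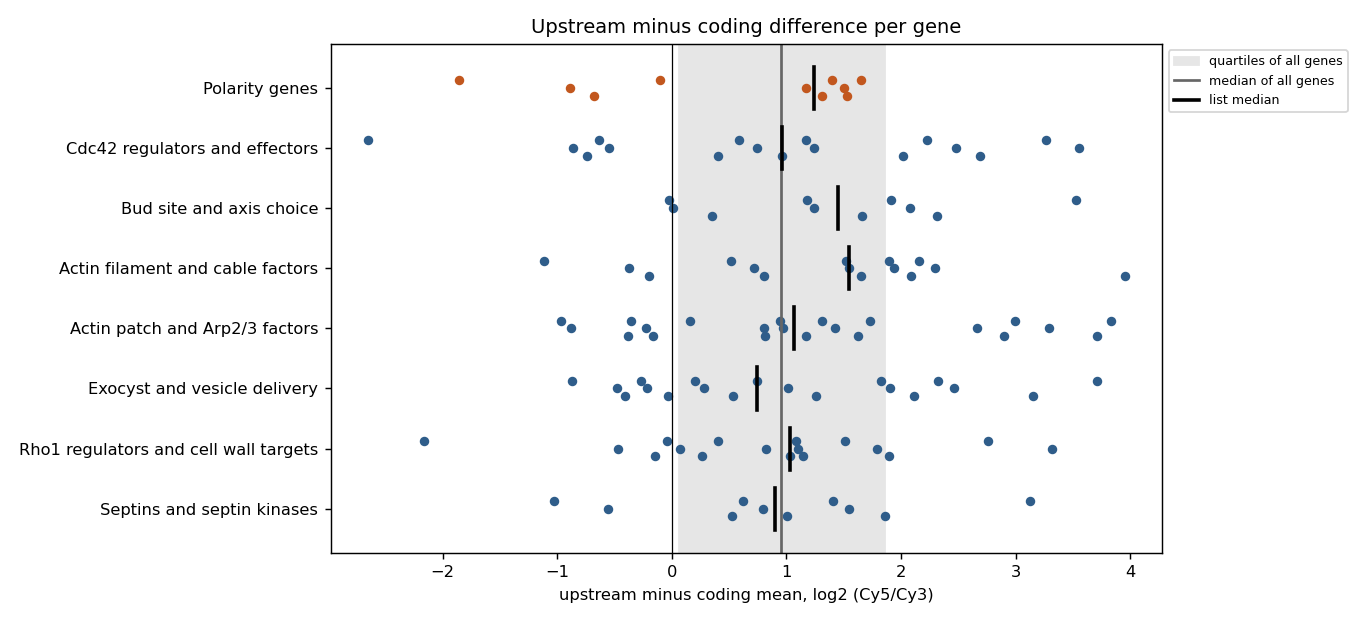
Upstream minus coding mean of the log2 ratio of Cy5 over Cy3 for each gene (points, mean of 2 arrays) of the polarity set and of 7 related lists; black bars are list medians, the grey line and band the median and quartiles of all genes. The polarity genes lie between -1.86 and 1.65, and list medians lie between 0.75 and 1.55; after normexp CDC42, BNI1 and SEC15 turn above 0, and within 250 bp RHO1 turns below.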

How the data were processed

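Each array was a 2-colour Agilent tiling array with 45219 spots, 3444 of them controls, and probes of 45 to 60 bases. The deposited scanner files give each spot's raw mean and local background intensity. They also give a processed intensity, corrected for background and scaled per dye in Agilent Feature Extraction 9.1.3.1, per the file headers. Amplification before labelling was linear, per the labels' protocols, and both arrays have 1 dye orientation, so dye bias does not cancel. The deposited value table holds log2 of processed Cy5 over Cy3, equal to the scanner values within 5.00e-06, not centred (medians -0.13 and -0.13), and served as an alternative.

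From the processed intensities log2 ratios were computed and centred on the median of the 41775 probes of each array. Probes with a non-uniform spot (174) or Cy3 not well above background (147) were left out, which left 41454. Saturated probes stayed: among the members Cy5 was saturated on both arrays at 3 coding probes, of CDC24 and BNI1, and Cy3 at 1. Coordinates are those of the array's annotation, counted from 1, of unstated genome build. Gene names were matched to a RefSeq table of assembly R64 (5008 of 5029), used for names only. Strand was read from the side of the upstream probes, and was the strand of the systematic name for 5006 genes and not for 2. Of the divergent probes 5 could not be split into gene names.

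Probes, gene means, their difference and the step between flanking probes were tested against 0 over the whole array with limma 3.58.1 in R 4.3.3 (intercept, eBayes, Benjamini-Hochberg, threshold 0.05), with 1 residual degree of freedom. The code was tested on simulated data. Alternatives were normexp (offset 50), loess, other filters, windows of 250 bp and the whole region, no divergent probes, and leaving out each array. Python 3.11.15, numpy 2.4.6, pandas 2.3.3 and matplotlib 3.10.9 were used. The members, lists and rules were chosen with earlier results of these data known. All 10 members were named, and from each list the genes with the highest and lowest difference that passed with the same sign on both arrays. Probe sequences were not used here.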

Additional observations from a re-analysis of the deposited data

How the results depend on the processing

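No paired analysis was possible because both arrays belong to the only group. Leaving out 1 array in turn gave medians over the members of -0.019 to -0.0074 (probes), 0.88 to 0.93 (upstream mean), -0.15 to -0.15 (coding mean), 1.2 to 1.29 (difference) and 0.22 to 0.27 (step at the start), with no test. Keeping probes with dim Cy3 changed no call of a member gene. It moved CDC24 to 1.63 in the upstream mean and to 1.85 in the difference, then the largest of the 10. After normexp, which differs in how background is removed, the upstream and difference counts below 0 were 2 and 2, the coding count above 0 was 2, and the lists had 15 genes below 0 upstream, 14 above 0 in coding regions and 13 with a lower difference. The medians were then 0.98 (upstream), -0.28 (coding) and -0.075 (probes). The sign turned for CDC42 (upstream mean 0.88, coding mean -0.30, difference 1.18, step 1.14, probes 0.88 at 240 bp upstream and -0.26 at 238 bp inside), BNI1 (difference 0.23, probes -0.033 at 84 bp upstream and 0.070 at 290 bp inside), the SPA2 step (-0.29), the SEC15 difference (0.56), the ACT1 probe 136 bp upstream (0.16) and coding probes of BEM1 (0.71 at 668 bp, -0.13 at 1094 bp), CDC24 (-0.35 at 1794 bp) and MYO2 (0.53 at 3984 bp, -0.12 at 4354 bp). After loess the medians were 0.56 (upstream), -0.091 (coding), 0.92 (difference), 0.17 (step) and -0.022 (probes). The sign turned for the BNI1 step (0.033), upstream probes of CDC42 (-0.44 at 676 bp), BNI1 (-0.37 at 466 bp) and SPA2 (0.23 at 510 bp), and coding probes of ACT1 (-0.093 at 550 bp), BNI1 (0.28 at 1074 bp, 0.22 at 1635 bp, -0.31 at 2042 bp, 0.40 at 2646 bp, 0.22 at 3376 bp), BUD6 (-0.21 at 960 bp, -0.36 at 1638 bp, 0.017 at 1871 bp), CDC24 (0.24 at 312 bp, -0.042 at 2116 bp), CDC42 (0.033 at 564 bp) and SPA2 (-0.025 at 2668 bp). With the authors' uncentred values the medians were 0.77 (upstream), -0.28 (coding) and -0.14 (probes), and values just above 0 turned: the CDC42 coding mean (-0.098) and probes of CDC42 (-0.096 at 676 bp upstream), ACT1 (-0.011 at 550 bp inside), MYO2 (-0.011 at 4354 bp) and SPA2 (-0.013 at 2970 bp). Within 250 bp the medians were -0.27 (upstream) and -0.11 (difference), with ACT1 at -0.28 and RHO1 at -0.26 upstream and RHO1 at -0.66 in the difference. With the whole region both medians were 1.02. Without divergent probes, which removes SPA2, PEA2, BUD6 and MYO2, the upstream median was 1.14, 2 members were below 0 upstream and 2 in the difference, and the lists had 45 genes above and 10 below 0 upstream and 45 and 9 in the difference. Without saturated probes the coding median was -0.14. The cause of the changes after normexp and loess was not tested. Signal limits the probe 1229 bp inside BUD6, the dimmest kept (Cy5 706 and 808). CDC24, CDC42, SPA2 and BUD6 rest on 1 upstream probe each within 500 bp.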

Other observations

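Probes downstream of the genes were no members and entered no comparison. The one after MYO2 read 1.52 and 1.60 on replicates 1 and 2, and the one after RHO1 1.64 and 1.56. The probe after BUD6 read 0.34 and 0.34, with Cy5 saturated on both arrays, and the one after CDC24 -0.15 and -0.18. The probe after ACT1 was left out for a non-uniform spot.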
